A study of Mus musculus with 14 samples.

Results

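The 9 genes described here are expressed by cholangiocytes, the epithelial cells that line bile ducts, or in the ductular reaction, the outgrowth of duct-like cells in injured liver. They were chosen by symbol: the keratins Krt19, Krt7 and Krt23, the adhesion molecule Epcam, the transcription factors Sox9 and Ehf, the chloride channel Cftr, and the polycystic disease genes Pkhd1 and Bicc1. All 9 had an entry among the 20337 genes of the bulk table labelled LD and PBS, the 23404 genes of the bulk table labelled KO and wild type, and the 21911 genes of the single-nucleus table. Mouse liver RNA was measured in 12 bulk libraries, 3 in each of 4 groups. One pair of groups is labelled as wild-type mice on chow with healthy livers that received tail-vein injections on 6 consecutive days, of lipid droplets (LD) or of phosphate-buffered saline (PBS). The other pair is labelled as Ms4a7 knockout (KO) and wild-type mice kept for 22 weeks on a diet that causes nonalcoholic steatohepatitis (NASH). The 2 nucleus libraries, labelled ko and wt, each pool 3 livers of 1 genotype on that same diet, so they carry no replicate error. The labels give neither the ages of the mice nor how the Ms4a7 allele was made, and do not say whether the 3 bulk libraries of a group came from separate animals, so p-values measure the spread between libraries.

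Bile ducts are a small part of the liver, and most liver RNA comes from hepatocytes. Cholangiocytes modify bile by secreting chloride and bicarbonate, and each carries a primary cilium that senses bile flow. They arise from bipotent precursors under Notch signalling with Sox9, and in chronic injury, steatohepatitis included, duct-like cells that carry Krt7, Krt19, Epcam and Sox9 spread from the portal tract.

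The genotype labels of the bulk libraries stand against the level of Ms4a7, the macrophage gene that the knockout targets. Ms4a7 was at 102, 117 and 136 normalized counts in the libraries labelled KO, against 9.70, 25.8 and 23.3 in those labelled wild type. In the other table it was at 10.5, 7.60 and 9.32 in the libraries labelled LD, against 62.2, 84.7 and 163 in those labelled PBS. In nucleus group 3, the macrophage-like one, Ms4a7 was at 0.622 in ko and 1.25 in wt. The names of the bulk tables and a first line in one of them disagree with the labels as well. Diet and injection labels belong to the same bulk libraries and are open to the same doubt. Each bulk group is therefore called by its label ("labelled KO", "labelled LD"). A direction given below belongs to libraries with that label, whatever was done to the mice. A library held between 39318264 and 41346464 gene reads under the LD and PBS labels, and between 21945394 and 23126164 under the KO and wild-type labels. The tables were scaled separately, so levels are compared within a table only.

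The genes differ in structure in ways that bear on how their RNA is counted. On mouse build mm10 (GENCODE annotation), Pkhd1 spans 560 kb of chromosome 1 (20057779 to 20618064, minus strand) with 14.3 kb of exon sequence, and Bicc1 spans 237 kb of chromosome 10 (70922832 to 71159700, minus strand) with 7.44 kb of exons. Cftr spans 152 kb of chromosome 6 (18170687 to 18322768, plus strand). Sox9 spans 5.54 kb of chromosome 11 (112782224 to 112787760, plus strand), where Krt19 (100140810 to 100148665) and Krt23 (99477974 to 99493137) lie on the minus strand 648 kb apart. Krt7 is on chromosome 15 (101411043 to 101430313, plus strand), Epcam on chromosome 17 (87635979 to 87651129, plus strand) and Ehf on chromosome 2 (103263433 to 103303278, minus strand). Exons of Pkhd1, Bicc1, Cftr and Krt7 overlap annotated antisense genes. Whether the bulk libraries keep strand is not given in the sources used here, so bulk reads of these 4 genes and of their antisense partners cannot be told apart.

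Start-site sequences were taken from RefSeq (build GRCm38.p6), 250 bases before to 50 after the annotated start, and 5 of the 9 genes matched an entry (Pkhd1, Cftr, Krt23, Krt7 and Epcam). Printed here are 3 of them, 5′ to 3′ on the gene's own strand: Pkhd1, whose RNA was the most concentrated in the duct-like nuclei, Epcam, whose fall in the libraries labelled LD held without any 1 library, and Krt23, whose log2 fold change there had the opposite sign to the other 8. Capitals mark matches, on either strand, to the ETS core GGAAG, which reads CTTCC on the other strand.
Pkhd1 (chr1:20618008-20618307, minus strand): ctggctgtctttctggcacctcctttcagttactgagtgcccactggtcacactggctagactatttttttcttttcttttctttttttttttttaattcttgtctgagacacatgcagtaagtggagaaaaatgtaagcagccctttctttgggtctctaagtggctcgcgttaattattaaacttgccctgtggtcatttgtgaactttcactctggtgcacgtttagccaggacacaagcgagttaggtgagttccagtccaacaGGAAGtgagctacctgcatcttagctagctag
Epcam (chr17:87635729-87636028, plus strand): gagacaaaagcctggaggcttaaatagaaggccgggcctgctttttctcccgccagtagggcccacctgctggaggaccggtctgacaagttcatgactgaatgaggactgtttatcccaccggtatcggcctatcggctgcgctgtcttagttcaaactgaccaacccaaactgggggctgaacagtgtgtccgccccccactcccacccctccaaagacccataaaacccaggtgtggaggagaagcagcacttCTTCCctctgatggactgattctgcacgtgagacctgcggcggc
Krt23 (chr11:99493071-99493370, minus strand): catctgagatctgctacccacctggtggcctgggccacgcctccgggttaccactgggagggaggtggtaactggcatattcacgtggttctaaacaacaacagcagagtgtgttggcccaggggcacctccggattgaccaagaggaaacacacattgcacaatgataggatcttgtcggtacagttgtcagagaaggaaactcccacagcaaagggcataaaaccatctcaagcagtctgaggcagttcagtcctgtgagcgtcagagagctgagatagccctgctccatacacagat
Pkhd1 encodes fibrocystin, a large membrane protein. The ETS core, the motif of the family to which Ehf belongs, was found 4 times for Cftr, 2 times for Krt7 and 1 time each for Pkhd1 and Epcam. It occurs in 71.4% of all 32851 mouse start-site sequences of the same length. Krt23 held no match to it, and none of the 5 held the SOX core AACAAT (10.7% of all), the RBPJ core TGGGAA (25.6%) or the TEAD core GGAATG (14.7%) on either strand. These matches describe letters only.

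Nuclei were deposited as 12 numbered groups without names, as the mean of UMIs scaled to a common total per nucleus. The number of nuclei in a group and their depth are not given, so values are set side by side with no test. Group 7 held the highest level of 16 of 16 cholangiocyte markers that are not among the 9 genes, and is called cholangiocyte-like. Its leading genes included Spp1, Anxa13 and Grhl2. Group 11 is called mesothelial-like, as 9 of 10 mesothelial markers peaked there. Group 2 is called stellate-like, with 12 of 12 hepatic stellate markers highest there, and group 10 dendritic-like, with 4 of 6. Group 1 is called hepatocyte-like, since 8 of 12 hepatocyte markers were highest in it. Of the other hepatocyte markers, 1 was highest in group 0 and 3 in group 5. Group 5 is called neutrophil-like, with 6 of 6 neutrophil markers highest there. The names rest on marker genes and not on an annotation by the submitters. The marker lists were chosen with earlier results of these data known, so these counts describe the groups and are no independent check of the names.

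Of the 9 genes, 7 had their highest mean level in group 7, where 11.6% of all genes did. Pkhd1 was at 84.2 scaled UMIs in ko and 87.6 in wt in group 7, by the mean of ko and wt 27.7 times the next highest group, the hepatocyte-like group 1, at 2.10 in ko and 4.10 in wt. Bicc1, an RNA-binding protein whose loss causes kidney cysts in mice, was at 39.1 in ko and 45.7 in wt. Unlike Pkhd1, it was also high elsewhere, at 23.3 in ko and 30.0 in wt in the mesothelial-like group and at 6.99 in ko and 13.8 in wt in the stellate-like group, and by the mean of ko and wt group 7 was at 1.59 times the next group. Nuclear RNA is rich in unspliced transcripts, and how introns were counted is not given in the sources used here, so levels of a long gene such as Pkhd1 and a short one such as Sox9 are not compared.

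Cftr, the apical chloride channel mutated in cystic fibrosis, was at 2.48 in ko and 4.62 in wt in group 7 and at 1.11 in ko and 0.937 in wt in the mesothelial-like group. Sox9 was at 2.06 in ko and 1.83 in wt in group 7, and next at 0.296 in ko and 0.310 in wt in the hepatocyte-like group 1. Sox9 is known from a set of periportal hepatocytes as well as from ducts. Ehf, an ETS factor of epithelia, was at 1.94 in ko and 2.36 in wt, with the dendritic-like group second at 0.344 in ko and 0.501 in wt. Epcam, a homophilic adhesion molecule, was at 1.07 in ko and 0.890 in wt. It was also at 0.341 in the dendritic-like group of ko, but at 0.0303 there in wt.

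The keratins split by cell group. Krt23, a keratin described as a stress-inducible marker of the ductular reaction in mouse and human liver, was at 0.470 in ko and 0.536 in wt in group 7, by the mean of ko and wt 7.02 times the next group, which was group 0. Of 12 hepatocyte markers, 6 had group 0 among their 2 highest groups. For the neutrophil-like group 5 that number was 7, so this count does not set group 0 apart. Glul and Lgr5 were among the leading genes of group 0, which held Krt23 at 0.0406 in ko and 0.103 in wt. Krt19 and Krt7, the keratins most used to stain bile ducts, were instead highest in the mesothelial-like group. There Krt19 was at 0.887 in ko and 0.480 in wt, against 0.403 in ko and 0.169 in wt in group 7. Krt7 was at 1.17 in ko and 1.63 in wt in the mesothelial-like group, against 0.301 in ko and 0.227 in wt in group 7. Mesothelial cells are known to carry both keratins. Krt19, Krt7, Bicc1 and Cftr thus had RNA in more than 1 cell group. For Cftr, group 7 was at 3.47 times the mesothelial-like group by the mean of ko and wt. By the same mean, Pkhd1, Krt23, Sox9, Epcam and Ehf were each at least 5.09 times as high in group 7 as in any other group. In single libraries the gap was narrower for Epcam in ko and for Ehf in wt, by the values above.

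**Figure D1:**
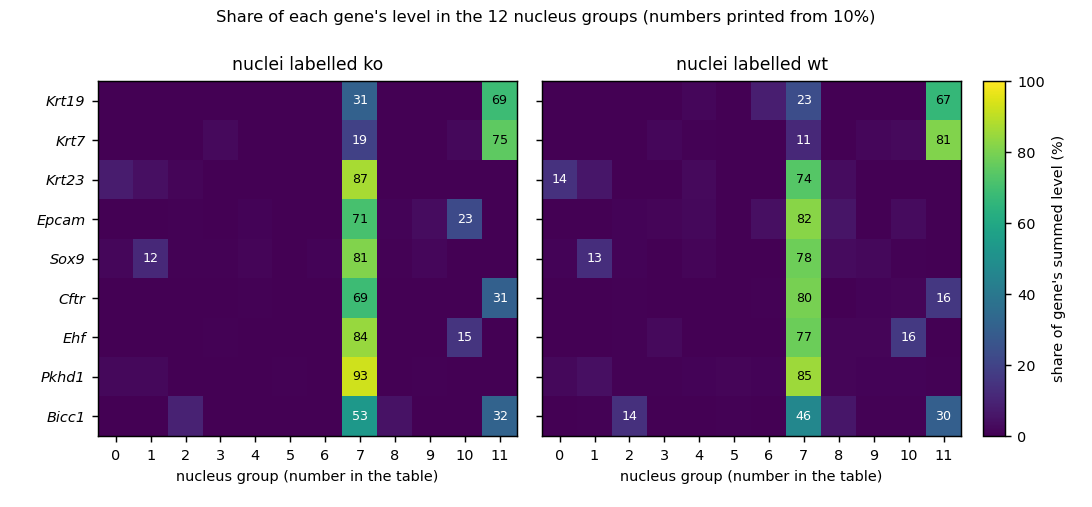
Share of each gene's summed level, in percent, that lies in each of the 12 numbered nucleus groups, for the ko library (left) and the wt library (right). Rows are the 9 genes, columns are the groups, colour gives the share and shares from 10% are printed. Group 7 holds most of 7 genes in ko, and Krt19 and Krt7 lie mostly in group 11 in both libraries.

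Over the 12 groups, the profile of each gene was set against the mean profile of the other 8. Pearson's r ran between 0.554 for Sox9 and 0.846 for Cftr, as a description over 12 groups of the same 2 libraries. Among 3354 other genes whose highest group level was at least 1.94, those closest to the mean profile of the 9 were Prdm16 (r = 0.953), Kcnma1 (0.948), Kansl1l (0.885), Anxa13 (0.863) and Grhl2 (0.844), followed by Kifc3, Mtcl1 and Dnajc1 (0.832 to 0.838). Of these 8 genes, only Kifc3 passed in the comparison labelled LD and PBS below, with 1157, 1137 and 1291 normalized counts in the libraries labelled LD and 1566, 1541 and 1568 in those labelled PBS (log2 fold change -0.39 ± 0.09, limma with Benjamini-Hochberg adjusted p = 0.0413).

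The first bulk comparison asks, by its labels, what lipid droplets do to healthy liver. Duct genes were lower in the libraries labelled LD: Epcam, Ehf, Bicc1 and Krt19 fell, and none of the 9 rose, at an adjusted p under 0.05 in limma (Benjamini-Hochberg over 14900 genes). Of all genes tested, 4.16% passed, 2.21% as lower and 1.95% as higher. All 9 had an unadjusted p under 0.05, as did 19.7% of all genes. The same 4 genes passed in edgeR, where 4.05% of all genes did, and those 4 and Sox9 in DESeq2, where 8.19% did. For 8 of the 9 genes the 3 libraries labelled LD all lay below the 3 labelled PBS, which held for 12.8% of all genes. Krt23 was the exception. The median log2 fold change of the 9 was -0.87, beside 0.00317 over all genes. In bulk tissue, fewer cells of a type and less RNA per cell cannot be told apart. Fold changes are given on the log2(normalized count + 1) scale with their SE.

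Mean levels per kb of exon, in normalized counts per kb, were highest for Sox9, at 157 under the LD label and 255 under the PBS label, and for Krt23, at 266 under LD and 172 under PBS. Krt19 followed with 49.1 under LD and 90.2 under PBS. Bicc1 (32.8 under LD, 62.1 under PBS), Epcam (26.2 under LD, 87.3 under PBS) and Pkhd1 (18.1 under LD, 25.7 under PBS) were intermediate. Krt7 (7.18 under LD, 12.6 under PBS), Ehf (3.75 under LD, 17.2 under PBS) and Cftr (0.918 under LD, 2.71 under PBS) were the lowest. The length used joins all annotated exons of a gene, 7.05 kb for Krt7 and 1.86 kb for Krt19, and the order depends on it. Before division the mean of Krt7 was 50.6 under LD and 88.6 under PBS, and that of Krt19 was 91.0 and 167. Krt23 stood above Sox9 under LD and below it under PBS, and Epcam below Bicc1 under LD and above it under PBS; the order itself was not tested.

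Of the duct keratins, Krt19, the type I keratin that pairs with Krt7, was at 80.8, 84.6 and 108 normalized counts in the libraries labelled LD, against 198, 151 and 153 in those labelled PBS. The groups did not overlap, and the change of -0.87 ± 0.19 passed (limma adjusted p = 0.0413). The call was narrow: it ended without any 1 of 5 libraries (adjusted p 0.113 to 0.130) and held only without LD replicate 3. Krt7 was at 46.2, 44.5 and 61.1 in the libraries labelled LD, against 80.2, 97.4 and 88.3 in those labelled PBS. Its groups also lay apart, and its change of -0.81 ± 0.23 was close to that of Krt19 but did not pass (limma adjusted p = 0.0844, and 0.0419 without LD replicate 3).

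Krt23 alone of the 9 had a positive log2 fold change. It was at 432, 427 and 387 normalized counts in the libraries labelled LD, against 476, 180 and 152 in those labelled PBS. The 3 libraries labelled LD were close together, while PBS replicate 1 lay above all of them and far above the other 2 of its group. The change of 0.81 ± 0.36 did not pass (limma adjusted p = 0.248), and without PBS replicate 1 it was 1.32 with an adjusted p of 0.00896.

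Epcam showed the steadiest fall of the 9. It was at 37.8, 65.1 and 69.4 normalized counts in the libraries labelled LD, against 223, 169 and 184 in those labelled PBS, so that the highest library labelled LD held less than the lowest labelled PBS by a wide gap. The change was -1.76 ± 0.26 (limma adjusted p = 0.00889), and without any 1 library the adjusted p stayed at 0.0457 or below. In the authors' deposited table the adjusted p of Epcam was 2.73e-08.

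The transcription factors differed in size of change. Ehf was at 6.30, 33.6 and 22.8 normalized counts in the libraries labelled LD, against 115, 69.4 and 103 in those labelled PBS. The groups lay apart, and its change of -2.38 ± 0.53 was the largest of the 9 (limma adjusted p = 0.0406). The call was lost without any 1 of the PBS replicates (adjusted p 0.111 to 0.147). Sox9, which sets duct fate in liver development, was at 774, 724 and 457 in the libraries labelled LD, against 1199, 1152 and 807 in those labelled PBS. Within each group, replicate 3 was the lowest, and LD replicate 1 came close to PBS replicate 3. The change of -0.71 ± 0.22 did not pass in limma (adjusted p = 0.108) and passed in DESeq2 on the recovered reads (adjusted p = 0.0164).

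Among the channel and cilium genes, Bicc1 was at 230, 308 and 194 normalized counts in the libraries labelled LD, against 463, 420 and 503 in those labelled PBS. The groups were well apart and the change was -0.94 ± 0.18 (limma adjusted p = 0.0221), a call that ended without LD replicate 1 or any 1 PBS replicate (adjusted p 0.0616 to 0.096). Pkhd1, whose product sits in the primary cilium, was at 298, 284 and 196 in the libraries labelled LD, against 411, 373 and 319 in those labelled PBS. It had the smallest change of the 8 genes with a negative one, -0.52 ± 0.18, and did not pass (limma adjusted p = 0.159). Cftr was at 6.30, 13.0 and 2.07 in the libraries labelled LD, against 14.04, 19.8 and 29.1 in those labelled PBS. The groups did not overlap, and its change of -1.64 ± 0.63 did not pass (limma adjusted p = 0.190).

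**Figure D2:**
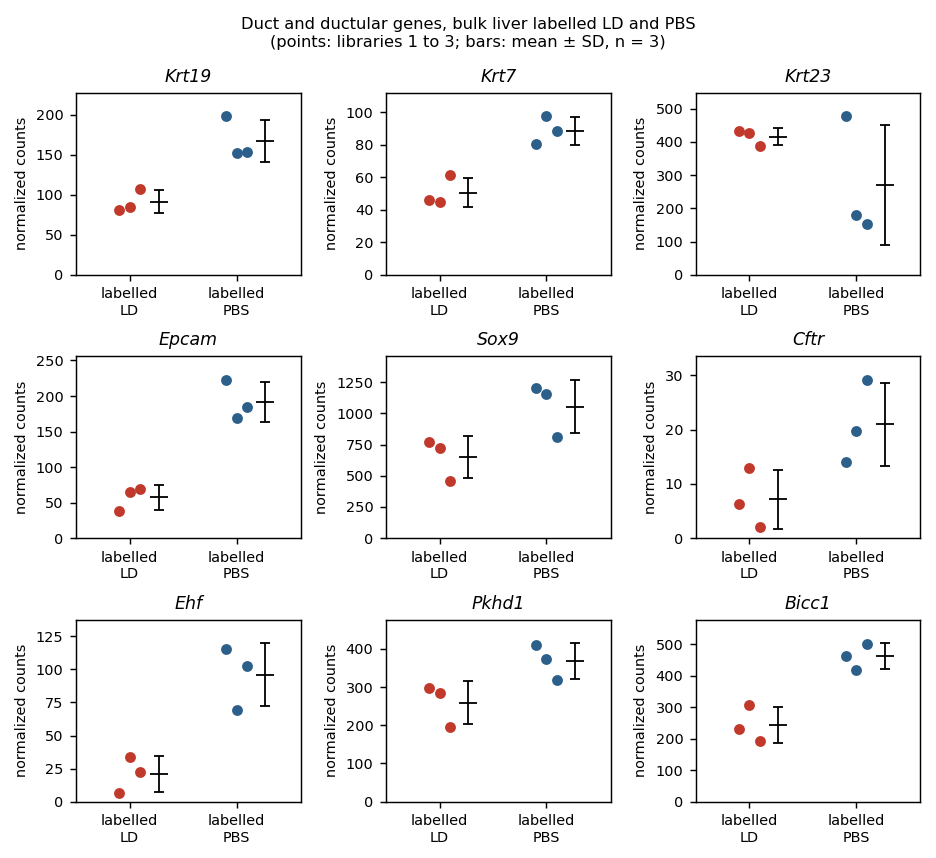
Normalized counts of the 9 genes in the bulk libraries labelled LD (red) and PBS (blue); each panel is 1 gene with its own vertical axis from 0, points are replicates 1 to 3 and bars give the mean ± SD (n = 3). In 8 panels all points labelled LD lie below all points labelled PBS, and in the Krt23 panel PBS replicate 1, at 476, lies above the libraries labelled LD.

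Cholangiocyte markers outside the 9 genes moved alongside them. Their list was also chosen with earlier results of these data known, so it is no independent check. Of 16 such markers tested, 9 fell and none rose, with a median log2 fold change of -1.23, and all 16 were below 0. They included Tm4sf4, with 1621, 1703 and 1799 normalized counts in the libraries labelled LD and 2629, 2861 and 3097 in those labelled PBS (-0.74 ± 0.09, limma adjusted p = 0.00428). Ddit4l was at 46.2, 39.1 and 61.1 in the libraries labelled LD, against 209, 195 and 138 in those labelled PBS (-1.87 ± 0.24). The junction protein Cdh1 (E-cadherin), shared with hepatocytes, changed by -0.99 ± 0.13. Their summed level ran from 6433 to 10261 in the libraries labelled LD and from 13804 to 18909 in those labelled PBS, much of it Spp1 (osteopontin), which macrophages also make.

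Other lists of the biliary programme, which share some genes with the marker list, followed in part. Of 19 ductular reaction and progenitor markers tested, 7 fell and none rose (median -0.89). Among them were the surface glycoprotein gene Cd24a (-1.43 ± 0.17), Tnfrsf12a, the receptor of the cytokine TWEAK (-1.03 ± 0.14), Tspan8 (-1.99 ± 0.34) and the acute-phase gene Lcn2 (-0.77 ± 0.14). Of 17 epithelial keratins and junction genes, Cdh1 alone fell (median -0.51). Krt8 and Krt18, the keratin pair of hepatocytes and ducts alike, were at -0.56 and -0.51 and did not pass (limma adjusted p = 0.112 and 0.111). Of 11 epithelial transcription factors, 3 fell: Foxj1, a regulator of motile cilia (-1.97 ± 0.33), the ETS factor Elf3 (-1.28 ± 0.28) and Sox4, a partner of Sox9 in mouse duct formation (-1.18 ± 0.21).

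Transport, cilium and signalling lists were closer to the whole. Of 14 biliary transport genes tested, 4 fell (median -0.18): the bile acid importer Slc10a2 (-0.76 ± 0.12), the bicarbonate cotransporter Slc4a4 (-0.43 ± 0.09), the glucose cotransporter Slc5a1 (-1.21 ± 0.24) and Sctr, the secretin receptor. Sctr was at 0, 3.26 and 2.07 normalized counts in the libraries labelled LD, against 22.1, 19.8 and 21.9 in those labelled PBS. Of 18 cilium and polycystic disease genes, Glis3 (-1.62 ± 0.23) and Dcdc2a (-1.02 ± 0.20) fell (median -0.16). Pkd1 and Pkd2, the genes of dominant polycystic kidney disease, were at -0.06 ± 0.10 and -0.03 ± 0.17. Of 19 Notch and Hippo genes, the Notch target Hey1 (-1.54 ± 0.28) and Tead1 (-0.67 ± 0.13) fell (median -0.11), and Yap1, the Hippo effector, was at 0.03 ± 0.10. None of these lists had a gene that rose. Of 23 list genes named by rule in this comparison, markers of other cells included, 6 kept their call without any 1 library. They were Tm4sf4, Ddit4l, Cdh1, Cd24a, Tnfrsf12a and the stellate marker Col1a1. Both edgeR and DESeq2 called all 23.

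Markers of other cells also differed. Of 12 hepatic stellate markers tested, 3 fell (Col1a1, Rgs5 and Pdgfrb; median -0.34), with summed levels of 27711 to 30012 in the libraries labelled LD and 33120 to 37365 in those labelled PBS. None of 9 mesothelial markers tested passed (median -0.14). Sums over all 10 listed were 354 to 637 in the libraries labelled LD and 507 to 583 in those labelled PBS. None of 12 hepatocyte markers passed, at a median of 0.27. Of 10 macrophage and Kupffer cell markers, Marco rose (2.03 ± 0.36, limma adjusted p = 0.0174) and Lyz2 fell (-0.69 ± 0.16, limma adjusted p = 0.0449), at a median of -0.13, with sums of 14370 to 18773 in the libraries labelled LD and 15814 to 24758 in those labelled PBS. None of 5 neutrophil markers passed, at a median of -0.73. No defining marker of these lists was at 0 in every library. The part of these cell types in the falls of Bicc1, Krt19 and the other genes was not tested.

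**Figure D3:**
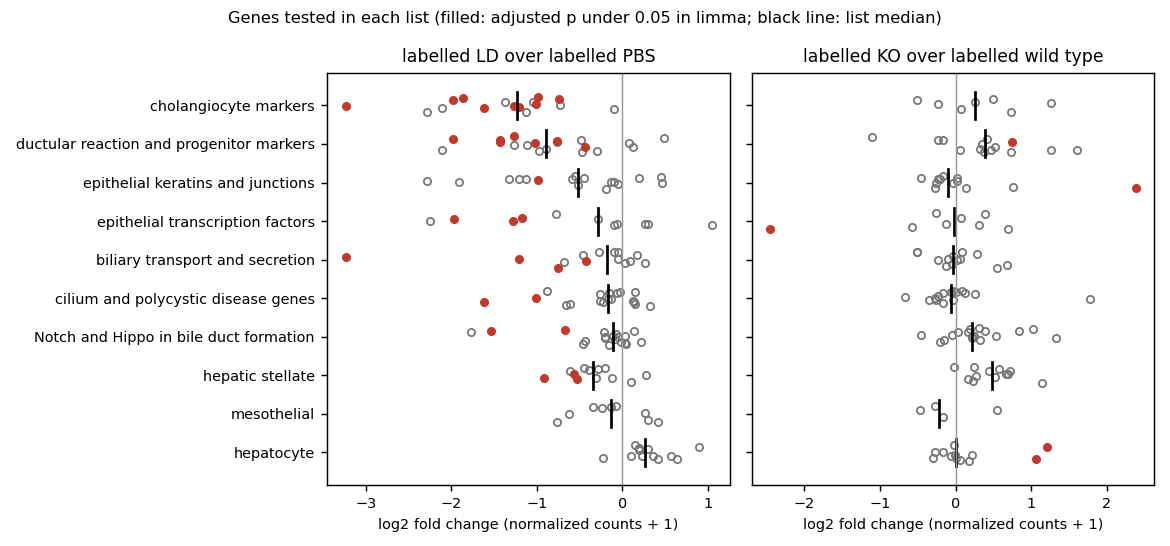
Log2 fold changes (normalized counts + 1, horizontal axes) of the tested genes of each list, labelled LD over PBS (left) and labelled KO over wild type (right). Filled points passed limma at an adjusted p under 0.05, open points did not, and black lines are list medians. On the left the cholangiocyte list has 9 filled points below 0 and the hepatocyte list none; on the right no cholangiocyte marker is filled.

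The second bulk comparison asks, by its labels, how loss of Ms4a7 alters the liver on the NASH diet. Krt23 fell in the libraries labelled KO and none of the other duct genes passed. Of the 9 genes 7 reached the level needed for a test, 10 normalized counts in at least 3 libraries, and 1 passed (limma, adjusted p under 0.05), where 3.72% of 15827 genes passed, 0.701% as lower and 3.02% as higher. An unadjusted p under 0.05 was reached by 2 of the 7 and by 18.7% of all genes. The groups did not overlap for Krt23, lower in the libraries labelled KO (11.7% of all genes), and for Sox9, higher in them (12.4% of all genes). The median log2 fold change of the 7 was 0.09, beside -0.02 over all genes.

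Krt23 was at 23.3, 3.55 and 16.1 normalized counts in the libraries labelled KO, against 150, 115 and 75.9 in those labelled wild type. KO replicate 2 rests on 3 reads, and the lowest library labelled wild type lay far above the highest labelled KO. The change was -3.16 ± 0.61 (limma adjusted p = 0.0369), and the authors' deposited table gave -2.99 with an adjusted p of 1.9e-11. The call held in edgeR, which called 4.09% of all genes, and in DESeq2, which called 7.84%, but ended without KO replicate 3 or any 1 wild-type replicate (limma adjusted p 0.0688 to 0.106).

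Sox9 was at 95.8, 125 and 88.7 normalized counts in the libraries labelled KO, against 53.3, 55.5 and 58.8 in those labelled wild type. The wild-type values lay close together, and all 3 KO values lay above them. The change of 0.86 ± 0.19 just missed the threshold in limma (adjusted p = 0.0564) and passed in DESeq2 (0.0277) and in the authors' deposited table (0.00537). Epcam was at 18.4, 20.1 and 14.98 in the libraries labelled KO, against 9.70, 18.1 and 7.35 in those labelled wild type. The groups overlapped through wild-type replicate 2, and the change of 0.65 ± 0.40 did not pass (limma adjusted p = 0.449).

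The duct keratins and cyst genes overlapped between the groups. Krt19 was at 18.4, 13.0 and 25.3 normalized counts in the libraries labelled KO, against 23.0, 23.2 and 17.1 in those labelled wild type (-0.19 ± 0.34). Krt7 was at 19.7, 13.0 and 14.98 in the libraries labelled KO, against 23.0, 18.1 and 1.22 in those labelled wild type. Wild-type replicate 3 held 1 read of Krt7, and the change of 0.73 ± 0.86 turned to -0.36 without it. Pkhd1 was at 66.4, 78.0 and 109 in the libraries labelled KO, against 92.1, 114 and 104 in those labelled wild type (-0.31 ± 0.22). Bicc1 was at 35.6, 54.4 and 56.4 in the libraries labelled KO, against 38.8, 71.0 and 33.1 in those labelled wild type (0.09 ± 0.34). None of these 4 differences passed (limma adjusted p 0.518 to 0.924).

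The 2 genes left out of the test were scarce. Ehf was at 11.1, 7.09 and 9.22 normalized counts in the libraries labelled KO and at 4.85, 5.16 and 8.57 in those labelled wild type. Cftr had 0 reads in all 6 libraries. A count of 0 allows up to 3 reads a library, so Cftr was not detectable at this depth.

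**Figure D4:**
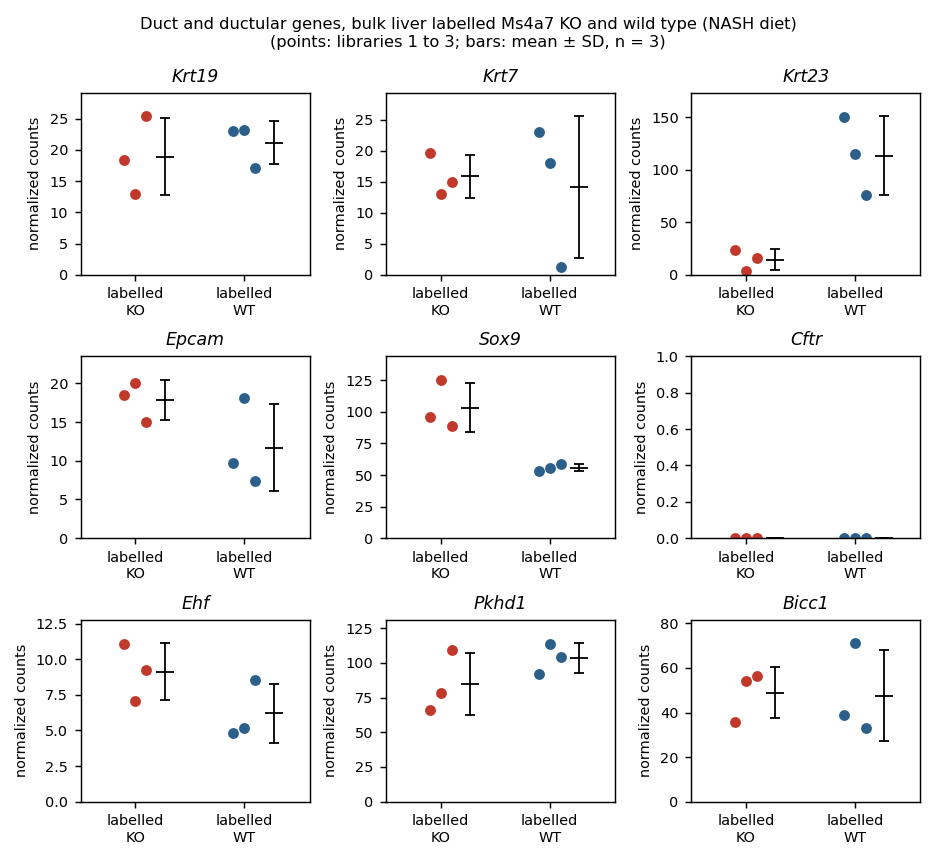
Normalized counts of the 9 genes in the bulk libraries labelled KO (red) and wild type (blue), both labelled as on the NASH diet. Each panel is 1 gene with its own vertical axis from 0, points are replicates 1 to 3 and bars give the mean ± SD (n = 3). Krt23 is lower in all 3 libraries labelled KO, Sox9 higher, the other genes overlap and Cftr is at 0 throughout.

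In the wider biliary lists 3 genes passed in this comparison, out of the tested genes counted below. That is near the 3.72% of all 15827 genes that passed, so the count is no result about these lists. None of 13 transport genes, 15 cilium genes or 17 Notch and Hippo genes passed, at medians of -0.04, -0.07 and 0.22. Of 8 epithelial transcription factors, Onecut1, a factor of liver and bile duct development, fell to 86.0, 118 and 344 normalized counts in the libraries labelled KO, against 877, 761 and 875 in those labelled wild type (-2.45 ± 0.45, limma adjusted p = 0.0313). Of 12 keratin and junction genes, the epithelial keratin Krt80 rose to 22.1, 57.9 and 56.4 in the libraries labelled KO, against 7.27, 5.17 and 9.79 in those labelled wild type (2.38 ± 0.45, limma adjusted p = 0.0362). Of 14 ductular reaction markers, Tnfsf12, which encodes TWEAK, a cytokine known to drive duct cell growth in mouse liver, rose by 0.75 ± 0.15 (limma adjusted p = 0.0391). The median of those 14 was 0.39, beside -0.02 over all genes, with 3 of them below 0, and 5 had an unadjusted p under 0.05. Each of these 3 calls was lost in 5 of the 6 fits that left out 1 library.

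None of the 7 cholangiocyte markers tested passed (median 0.25). Sums over all 16 listed, tested or not, ran from 3905 to 4773 in the libraries labelled KO and from 2894 to 3523 in those labelled wild type. Of 10 macrophage and Kupffer cell markers 7 rose (median 2.07), Lyz2, Marco, Timd4 and C1qa among them. Sums over the 10 were 36414 to 61978 in the libraries labelled KO and 5230 to 10353 in those labelled wild type. Of 3 neutrophil markers tested Csf3r rose (median 2.44), and all 3 had an unadjusted p under 0.05. Of 5 B and plasma cell markers tested Bank1 rose (median 1.25). Of 8 sinusoidal endothelial markers Cdh5 rose (median 0.14). None of 3 T and natural killer cell markers or 3 dendritic markers tested passed. Of 12 stellate markers none passed (median 0.48), and of 4 mesothelial markers tested none passed. Sums over all 10 listed mesothelial markers were 124 to 247 in the libraries labelled KO and 116 to 234 in those labelled wild type. Of 12 hepatocyte markers 2 rose, Hpx and Pck1, and each lost its call in 5 of the 6 fits that left out 1 library. Of the 12 list genes named by rule in this comparison, Lyz2 and Marco alone kept their call in all 6 such fits. The part of these cell types in the values of Sox9 and Krt23 was not tested. Tnfsf12 and Spp1 are known to be made by macrophages too. Spp1 was at 822, 1386 and 659 in the libraries labelled KO, against 382, 533 and 269 in those labelled wild type, and did not pass (1.26 ± 0.32, limma adjusted p = 0.0793).

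**Figure D5:**
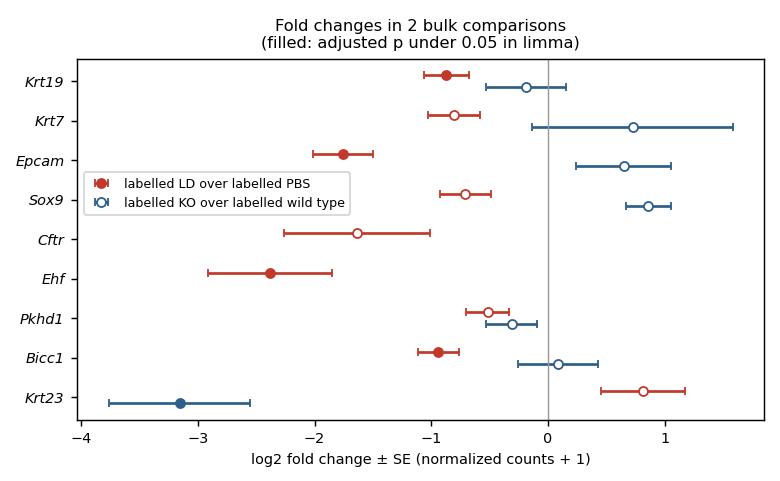
Log2 fold change ± SE (horizontal axis, normalized counts + 1) of each tested gene in the 2 bulk comparisons: labelled LD over PBS in red, labelled KO over wild type in blue; filled points passed limma at an adjusted p under 0.05. Krt23 is at 0.81 in red and -3.16 in blue, and Sox9 at -0.71 in red and 0.86 in blue.

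By their labels, the 2 bulk comparisons use different mice and diets. They come from separate tables and share no library, and no test was run between them. Set side by side, Krt23 had a log2 fold change of 0.81 under the LD label and -3.16 under the KO label, and Sox9 had -0.71 under the LD label and 0.86 under the KO label. Epcam had -1.76 under the LD label and 0.65 under the KO label. Pkhd1 was negative in both, at -0.52 under the LD label and -0.31 under the KO label, and passed in neither.

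In nuclei of group 7, 8 of the 9 duct genes differed by less than 2-fold between ko and wt. By log2 ratio of ko to wt, 5 of the 9 were below 0, where 45.9% of genes above the median level were. The median was -0.06 for the 9 and 0.05 for those genes. Krt19 alone was at least 2-fold higher in ko, with a log2 ratio of 1.24 (7.89% of genes were), and none was at least 2-fold lower (4.3% of genes were). Cftr came nearest to that, at -0.90. Krt23, which fell in the bulk libraries labelled KO, had a log2 ratio of -0.19 in group 7, and Sox9 had 0.17. Ms4a7 was lower in ko in nucleus group 3 but higher under the KO label in bulk. The nucleus and bulk contrasts are therefore not taken as the same. In bulk, Ms4a7 was lower under the LD label, where Krt23 had a log2 fold change of 0.81 and Sox9 -0.71. With 1 pooled library a genotype and an unknown number of nuclei, the ratios in nuclei have no replicate check.

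Outside group 7, Pkhd1 and Bicc1 were lower in ko in every group. Pkhd1 ran from 0.126 to 2.10 in ko and from 0.523 to 4.10 in wt over the other 11 groups, and Bicc1 from 0 to 23.3 in ko and from 0.0860 to 30.0 in wt, each lower in ko in 11 of 11 groups. Of the 6159 genes above 0 in wt in each of these groups, 2.5% were lower in ko in all 11. That share takes genes by their level in wt alone. A 0 in ko counts as lower, as for Bicc1 in 3 groups. The share in the other direction was not computed. The groups are parts of the same 2 libraries and are no replicates. For the other duct genes no share over all genes was computed, and many of their values were at or near 0. Ehf was lower in ko in 7 groups and higher in 0, and Krt7 lower in 8 and higher in 1. Cftr was lower in 8 and higher in 2, and Krt23 lower in 5 and higher in 1. Epcam and Sox9 were lower in 5 and higher in 4, and Krt19 lower in 2 and higher in 3. Ms4a7, which is no duct gene, was lower in 8 and higher in 0. Over all 12 groups, Ehf was at 0 in 7 of ko and 4 of wt, Krt7 in 5 and 2, and Cftr in 5 and 1. Sox9 was at 0 in 3 of ko and 4 of wt, and Ms4a7 in 7 and 3. The part of detection in ko in these counts was not tested. Pkhd1 in groups of blood cells, such as 0.470 in ko and 1.58 in wt in the neutrophil-like group 5, stands beside hepatocyte transcripts found in every group. Alb was higher in ko in 12 of 12 groups (1.17 to 2.89 times), with 21.7 in ko and 7.87 in wt in group 7, and Apoa1 was higher in ko in 12 of 12 groups (2.29 to 3.60 times). The part of such transcripts in the values outside group 7 was not tested.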

How the data were processed

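The 9 genes, the gene lists and the marker lists were chosen with earlier results of these data known. Groups follow the titles in the labels. Per the submitters' processing notes, bulk reads were handled with FastQC, STAR and DESeq2 and nuclei with Cell Ranger and Seurat 4.0.1, on mm10; the read counter, its annotation and strand setting, and the treatment of doublets are not given in the sources used here. The bulk signal values deposited by the authors are read counts per gene, each divided by the size factor of its library. This was read from the values: 100% were whole multiples of 1 step within 0.01 in each library, which gave back whole reads. The log2 fold changes, p-values and adjusted p-values in the authors' deposited tables were not used in any test. The nucleus signal values deposited by the authors are mean UMIs of a numbered group in 1 genotype, after scaling to a common total, with a median column total of 9996; 4 repeated rows were left out.

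Each table was fitted by itself on log2(value + 1) with limma 3.58.1 (lmFit, eBayes with trend, two-sided; R 4.3.3), over genes that reached 10 normalized counts in 3 of its 6 libraries, with Benjamini-Hochberg adjustment over all genes tested and a threshold of 0.05; the steps were tested on simulated data. Alternatives were a pseudocount of 5, no filter, a mean of at least 50, quantile normalization, the replicate number as a block, edgeR 4.0.16 (quasi-likelihood, TMM) and DESeq2 1.42.0 on the recovered reads, and leaving out each library. The edgeR test called 648 genes for the KO label and 603 for the LD label. No 2 replicates were copies: their lowest chi-square divided by its degrees of freedom was 16.9, over genes. Floors for a count of 0 cover counting error only. The text names all 9 genes, Ms4a7, up to 4 called members of each list by adjusted p, other list members picked as background after their values were seen (Yap1, Pkd1, Pkd2, Krt8, Krt18, Spp1, Alb and Apoa1 among them), and the 8 genes nearest in profile over the nucleus groups (log2 of the level plus the 5th percentile of values above 0). Ratios in nuclei use the same added value. A nucleus group was named where most markers of a type peaked. Group 8 stays unnamed.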

Additional observations from a re-analysis of the deposited data

How the results depend on the processing

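Under the alternatives run, 557 values of single genes kept their direction and side of the threshold, 130 lost the threshold, 5 gained it and 7 changed sign. The 557 include genes not called in either fit, and ratios in nuclei, which have no threshold and were judged by sign. Only a called gene can lose the threshold. Of the called list genes named by rule, 10 of 12 for the KO label and 17 of 23 for the LD label lost it in at least 1 fit without 1 library. Of the 9 duct genes, 4 passed for the LD label; quantile normalization left 2 (Epcam and Bicc1), and leaving out 1 library left 1 to 5. For the KO label 1 passed; DESeq2 called 2 (Krt23 and Sox9), and leaving out 1 library left 0 to 1. Over all genes, 620 passed for the LD label and 589 for the KO label; DESeq2 called 1221 and 1241, and leaving out 1 library gave 134 to 1226 (the highest without LD replicate 3, the lowest without PBS replicate 2) and 124 to 530 (the lowest without KO replicate 2). The cause of these shifts was not tested beyond the loss of a library. For the KO label, Bicc1 was at -0.10 under quantile normalization and at -0.13 to 0.41 without 1 library, Krt19 at -0.41 to 0.044 and Krt7 at -0.36 to 1.35; none of these passed.

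After subtraction of group means, same-numbered libraries correlated over all genes at 0.12, -0.03 and -0.02 for the KO label. For the LD label they correlated at 0.05, -0.04 and 0.13. These low values do not exclude that the replicate numbers pair libraries for some genes. With the number as a block, 822 genes passed for the KO label and 793 for the LD label, with 1 and 5 of the duct genes. Without the block 589 and 620 genes passed. In group 7 of the nuclei, 5 of the 9 genes had a ratio of ko to wt below 1 under both alternatives run, a larger added value and columns scaled to 1 total. Cftr and Ehf in both tables rest on few reads, as do Krt7, Krt19 and Epcam under the KO and wild-type labels and Krt23 under the KO label. The unknown number of nuclei limits every ratio of ko to wt.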
